A study of Canis lupus familiaris with 15 samples.

Results

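Macrophage and antigen presentation genes were examined in 15 primary canine osteosarcomas. The group was a list of 38 genes chosen by name for what they are known to do, and 36 of the 38 had a probeset with that symbol as its only gene name, out of 15115 genes named in this way on the array. CD33, a sialic acid receptor of myeloid cells, and LILRB4, an inhibitory receptor of myeloid cells, had no such probeset and were not analysed here. Where a gene had several probesets, the brightest over the 15 arrays was used, and values are log2 PLIER signals, PLIER being the method that combines the probes of a probeset into 1 intensity.

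Each array held total RNA of a snap frozen tumor taken at limb amputation from a different pet dog, on the Affymetrix Canine 2.0 array. Per the study's methods the dogs then received chemotherapy. The DFI < 100 cohort (poor responders, 8 dogs, age 7.80 ± 2.28 years, SD) relapsed within 100 days of disease free interval, and the DFI > 300 cohort (good responders, 7 dogs, age 10.5 ± 2.27 years) stayed free of disease beyond 300 days. Greyhounds made up 3 dogs of DFI < 100 and 1 dog of DFI > 300, the other dogs being of other or mixed breeds. The study's population list, matched by the dog number in each array's title, gave 3 giant cell and 5 osteoblastic tumors in DFI < 100, and 6 osteoblastic and 1 poorly differentiated tumor in DFI > 300, so giant cell tumors occurred only in DFI < 100. No cells were sorted, so fewer macrophages and less RNA of these genes per macrophage cannot be told apart. The median signal of the arrays lay between 46.6 and 54.7. The log2 3′ to 5′ ratio of control probesets was 2.04 ± 0.49 in DFI < 100 and 1.90 ± 0.54 in DFI > 300. The arrays were run in batches that could not be assigned to each dog.

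Macrophages are phagocytes that derive from blood monocytes or from embryonic precursors and depend on the growth factor CSF1 and its receptor CSF1R. In bone the same precursors, under CSF1 and the TNF family ligand RANKL, fuse into osteoclasts, the multinucleated cells that resorb bone matrix, so that several macrophage genes are also expressed by osteoclasts. Macrophages digest what they engulf in lysosomes and present peptides on MHC class II molecules, whose chains are escorted by the invariant chain CD74 and transcribed under the coactivator CIITA.

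Most of the list was measured well above background. A level of 6.79 on the log2 scale was the 95th percentile of the array's reporter controls. It was exceeded by the mean of 25 of the 36 members, against 42.7% of all named genes. Among the members above the level were the lineage markers CD68, CD14, LAPTM5 and AIF1, the scavenger receptors CD163, MRC1, VSIG4 and STAB1, all 3 chains of C1q, and CSF1R. At or under the level were CD53, CD84, MSR1, MARCO, SIGLEC1, CLEC4G, CSF1, SPI1, FCER1G, TREM2 and HMOX1, and values of these 11 are less certain. CLEC4G, a lectin of sinusoidal endothelium, lay between -9.37 and 2.59. Its values are not reliable, though it was kept in the counts over 36 members.

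The members differed widely from tumor to tumor. The distance between the highest and the lowest tumor had a median of 3.88 log2 units over the 25 members above the level, against 1.77 over all genes above the level. CD68, a lysosomal glycoprotein of macrophages and osteoclasts, spanned 6.57 log2 units or 94.8-fold, while CIITA spanned 0.65 log2 units or 1.57-fold. Signals of different probesets depend on their probes as well as on the transcript, so members were compared between tumors and not with each other.

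**Figure D1:**
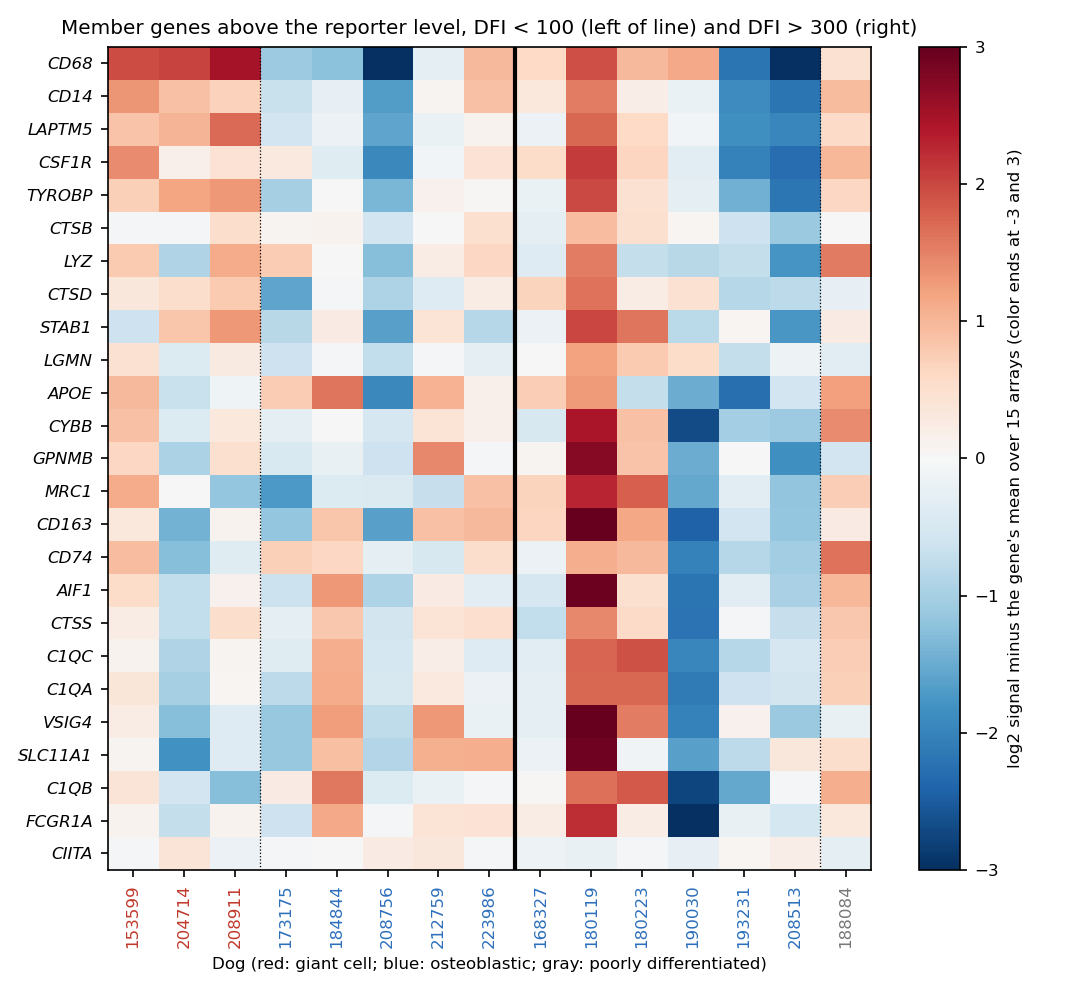
The log2 signal of the 25 members above the reporter level in each tumor, as the distance from that gene's mean over 15 arrays, with the color scale ending at -3 and 3. The column of dog 180119 is high for nearly all members, the columns of dogs 190030 and 208513 are low, and dog 190030 is low for the lower rows (CYBB to FCGR1A) but not for CD68.

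The ends of this range lay mostly within the DFI > 300 cohort. Dog 180119, an osteoblastic tumor of DFI > 300, had the highest value of 25 of the 36 members, and over the 25 members above the level it stood on average 1.88 log2 units above each gene's mean. CD163, the scavenger receptor for hemoglobin bound to haptoglobin, was 11.74 in this dog, and the next highest tumor had 9.70. In CYBB, the catalytic subunit of the phagocyte NADPH oxidase, its value was 11.10 against 10.08 in the next tumor. AIF1, a calcium binding protein of macrophages, was 10.42 there and 8.78 in the next. Dog 180119 had the highest value of each of these genes, but by Dixon's test within its cohort it stood apart from the other dogs for MARCO alone among the 36 members.

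The lowest values also came from good responders. Dog 190030 was the lowest for 14 members and dog 208513 for 11, both osteoblastic tumors of DFI > 300. Averaged over the 25 members they lay at -1.21 and -1.16 log2 units relative to the gene means, and osteoblastic tumors 208756 (DFI < 100, -1.01) and 193231 (DFI > 300, -0.86) followed. Array quality measures did not set dog 180119 apart, with a median signal of 53.2 and a log2 3′ to 5′ ratio of 2.28. Dog 190030 had the lowest log2 3′ to 5′ ratio of the series, 1.10, and a median signal of 51.3. The part of these measures in the members' values was not tested.

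The spread between dogs was larger in DFI > 300 than in DFI < 100 for 24 of the 25 members above the level, CIITA being the exception, against 55.3% of all genes above the level. The median SD of these members was 0.84 in DFI < 100 and 1.39 in DFI > 300, and it was 1.20 in DFI > 300 without dog 180119. Over all genes above the level the median SDs were 0.46 and 0.49. Without dog 180119 the count was 22 of 25, against 56.2% of all genes above the level. No test was made of this difference in spread, since members moved together and are not independent.

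The cohort comparison asked whether tumors of poor responders differed from those of good responders in these genes. No member passed an adjusted p of 0.05 in limma with Benjamini-Hochberg adjustment over 42860 probesets, nor did any other probeset (0%). At an unadjusted p of 0.05, 0 of 36 members passed, against 3.68% of all probesets. The members were higher in DFI < 100 in 21 cases and lower in 15, with a median difference of 0.10 on the log2 scale, against 0.0059 over all probesets. That median moved to 0.47 without dog 180119 and to -0.22 without dog 190030. Its direction also turned without the Greyhounds (-0.22, 13 higher and 23 lower), with age as a covariate (-0.13, 17 and 19) and with array weights (-0.083, 16 and 20), so the members had no settled direction between cohorts.

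The smallest unadjusted p belonged to CIITA, at 6.90 ± 0.21 (SD, n = 8) in DFI < 100 and 6.72 ± 0.18 (n = 7) in DFI > 300, a difference of 0.18 (SE 0.13, adjusted p = 0.999 in limma). These values lay near the reporter level, and a dimmer CIITA probeset went the other way, by -0.14 (SE 0.22). LGMN, the asparaginyl endopeptidase legumain that cuts antigens and the invariant chain, was 10.17 ± 0.42 in DFI < 100 and 10.53 ± 0.68 in DFI > 300, a difference of -0.36 (SE 0.28) or 1.28-fold lower. The mannose receptor MRC1 followed, at 7.96 ± 0.96 and 8.62 ± 1.44, a difference of -0.65 (SE 0.59). In each of these genes the ranges of both cohorts overlapped, as they did for all 36 members, and 0.0187% of all probesets had cohorts that did not overlap.

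The other 9 of the 12 members with the smallest p values had differences smaller than 1 standard error. FCER1G, the signaling chain shared by several Fc receptors, differed by 0.67 (SE 0.82) at background level. APOE, a lipid carrier made by macrophages, differed by 0.48 (SE 0.61), and SPI1, the transcription factor PU.1 of the myeloid lineage, by 0.48 (SE 0.68). The lysosomal protease CTSD was lower in DFI < 100, by -0.29 (SE 0.41), while its other probeset differed by 0.01 (SE 0.50). Bacterial wall lysing LYZ was higher by 0.36 (SE 0.52), the heme degrading enzyme HMOX1 by 0.40 (SE 0.63), and the lipopolysaccharide coreceptor CD14 by 0.33 (SE 0.58). CTSB, a cysteine protease of the lysosome, and LAPTM5, a lysosomal membrane protein of blood cells, came last with 0.15 (SE 0.27) and 0.32 (SE 0.57). The remaining 24 members differed by between -0.30 (STAB1) and 0.51 (CLEC4G).

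By role, the 3 C1q genes were all lower in DFI < 100 (median -0.16) and 6 of 8 scavenger and tissue macrophage receptors were lower (median -0.26), where 21046 of 42860 probesets were lower. Higher were 4 of 4 genes of activating adaptors, Fc receptor and TREM2 (median 0.25) and 3 of 3 of growth factor, receptor and lineage transcription factor (median 0.19). So were 4 of 5 lysosome, lipid and glycoprotein genes, 3 of 4 of class II chain handling, 2 of 3 of oxidant, heme and metal, and 3 of 6 lineage and surface markers. These directions by role depended on dog 180119. Without it 33 of 36 members were higher in DFI < 100, beside 22273 of 42860 probesets. The 3 lower members were then MRC1, LGMN and CTSD, so the C1q genes and the scavenger receptors other than MRC1 were higher. TREM2, at 0.01, turned to -0.05 with an offset of 16 before log2, and in osteoblastic tumors alone C1QB was 0.36, C1QA 0.01 and TYROBP -0.16. Age as a covariate turned APOE to -0.22 and HMOX1 to -0.38, and leaving out the Greyhounds turned CD14 to -0.21, CTSB to -0.086 and LAPTM5 to -0.085. None of these values passed either threshold. Taking osteoblastic tumors alone, 5 of DFI < 100 against 6 of DFI > 300, again gave 0 of 36 members at an adjusted p of 0.05 (0% of all probesets) and 0 at an unadjusted p of 0.05 (4.64% of all probesets), with LGMN at -0.61 (SE 0.32) as the member of smallest p and a median of 0.03. Leaving out dog 193231 gave 2 members at the unadjusted threshold (LGMN and CTSD), and leaving out dog 208513 or dog 208756 gave 1 (CTSD or APOE). In these fits 2810, 2598 and 1562 of 42860 probesets passed it, against 1988 with all dogs.

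**Figure D2:**
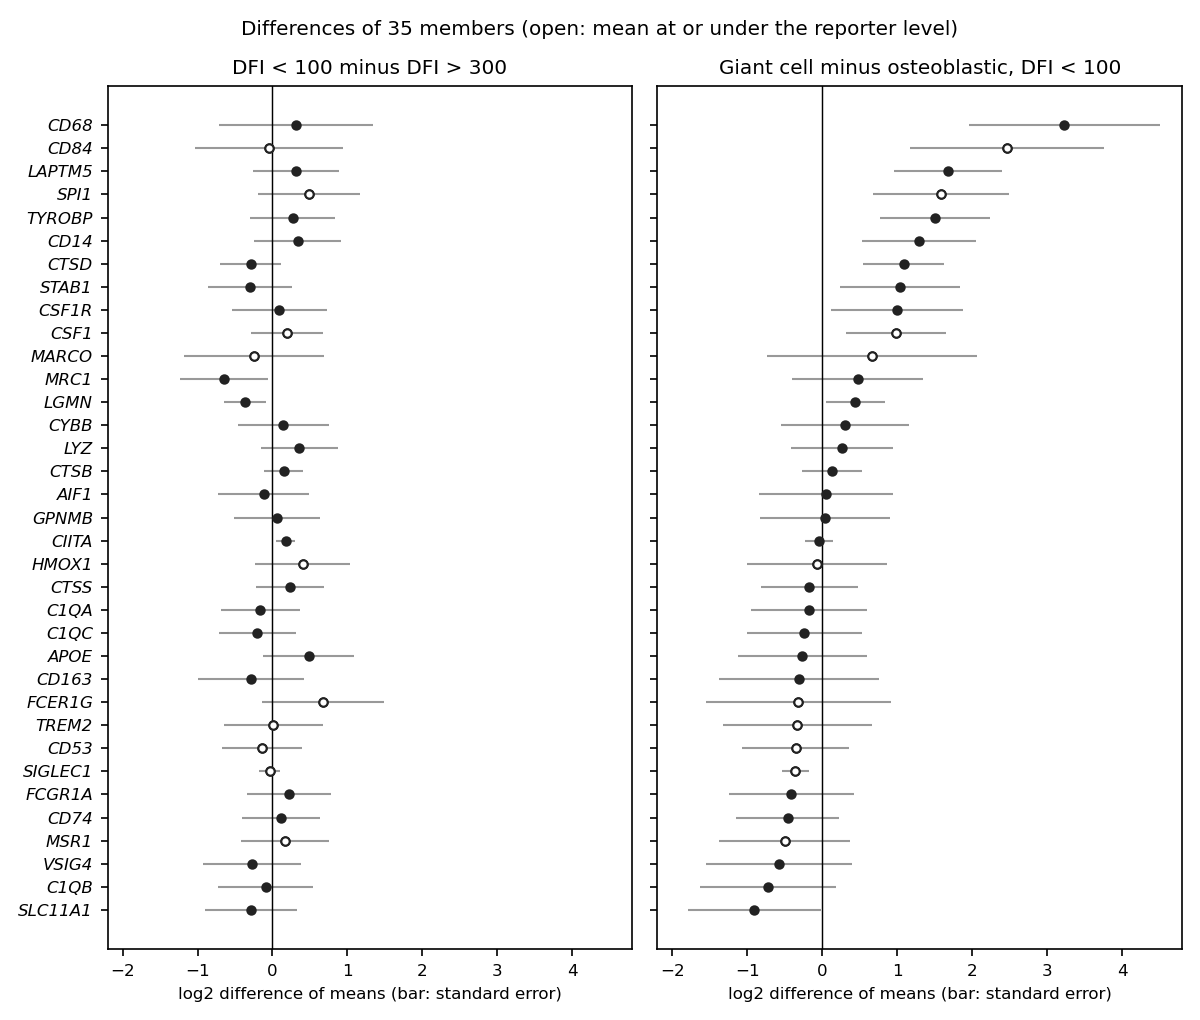
Difference of means of 35 members (CLEC4G left out) on the log2 scale with its standard error from limma, for DFI < 100 minus DFI > 300 (left) and for giant cell minus osteoblastic tumors of DFI < 100 (right), filled where the mean is above the reporter level and open elsewhere. The bars of the left panel cross 0 in all but CIITA, LGMN and MRC1, while CD68, at 3.23, lies farthest to the right in the right panel and SLC11A1, at -0.91, farthest to the left.

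Within DFI < 100, giant cell tumors were compared with osteoblastic tumors. Giant cell osteosarcoma is a histologic subtype rich in multinucleated giant cells that resemble osteoclasts. CD68 was 9.39-fold higher and LAPTM5 3.20-fold higher in the 3 giant cell tumors than in the 5 osteoblastic tumors, and these were the members with an unadjusted limma p below 0.05. No member passed an adjusted p of 0.05, which 0.00233% of all probesets did. At an unadjusted p of 0.05, 2 of 36 members passed, both higher, against 6.15% of all probesets in either direction, 2.79% of all probesets higher, and 4.38% higher among those above the level. In all, 19 members were higher and 17 lower in giant cell tumors, with a median of 0.04, against -0.05 over all probesets. This split depended on single giant cell tumors. It was 28 and 8 (median 0.43) without dog 204714, and 15 and 21 (median -0.15) without dog 208911. The array of dog 204714 had the lowest median signal of the series, 46.6, and the highest log2 3′ to 5′ ratio, 2.88. The part of array quality in this split was not tested. The count of 2 depended on the dogs and the fit. It was 0 or 1 without dog 208911, 173175, 204714 or 208756, with LAPTM5 lost in each case and CD68 without dogs 208911 and 208756 (leaving CLEC4G in the latter), and it was 4 without dog 180119, 208513 or 223986. With the 8 DFI < 100 arrays alone it was 7, adding CD14, CD84, SPI1, TYROBP and CTSD. Over all 42860 probesets the count at this threshold was 2635 in the main fit and 2958 with the 8 arrays alone. It was 1766, 2252, 2475 and 2263 without dogs 208911, 173175, 204714 and 208756, and 2627, 2876 and 2804 without dogs 180119, 208513 and 223986. With the 3′ to 5′ ratio as a covariate CD68 stayed, LAPTM5 was lost and SIGLEC1 entered as lower, while array weights added SIGLEC1 and the filter at the median added TYROBP.

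In CD68 the giant cell tumors read 11.27, 11.34 and 11.82, and the osteoblastic tumors of the same cohort read 5.63, 8.07, 8.23, 9.02 and 10.28. The osteoblastic tumors of DFI > 300 lay between 5.25 and 11.24 with a median of 10.10, and the poorly differentiated tumor read 9.76. All 3 giant cell tumors therefore exceeded every other tumor of the series for CD68, with the good responder 180119 just under the lowest of them. The difference within DFI < 100 was 3.23 (SE 1.27, adjusted p = 0.785 in limma).

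LAPTM5 followed the same order within DFI < 100. Its values were 10.85, 11.02 and 11.70 in giant cell tumors and 8.42, 9.42, 9.80, 9.82 and 10.10 in osteoblastic tumors, a difference of 1.68 (SE 0.72, adjusted p = 0.800 in limma). Dog 180119 reached 11.71 among osteoblastic tumors of DFI > 300, which ranged down to 8.04. The other LAPTM5 probesets, both above the level, differed by less, 0.09 (SE 0.27) and 1.23 (SE 0.77), and their groups overlapped, so the difference at the unadjusted threshold held for the brightest probeset only. The second CD68 probeset differed by 3.59 (SE 1.24), again without overlap. TYROBP, the adaptor DAP12 through which TREM2 and other receptors signal, read 9.45, 9.93 and 10.04 in giant cell tumors and 7.37 to 8.88 in osteoblastic tumors, a difference of 1.50 (SE 0.73). On the probesets used, neither gene's groups overlapped within DFI < 100.

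The next members by p were CTSD, SIGLEC1, CD84, CLEC4G, SPI1, CD14 and CSF1. CTSD was 11.97 ± 0.22 (SD, n = 3) against 10.88 ± 0.73 (n = 5), a difference of 1.08 (SE 0.54), and the DFI > 300 osteoblastic tumors averaged 11.65 ± 0.94 (n = 6). The other CTSD probeset, also above the level, differed by less, 0.53 (SE 0.73). SPI1 was 7.78 ± 0.26 against 6.20 ± 1.21, a difference of 1.58 (SE 0.91). CD84, a receptor of the SLAM family on leukocytes, differed by 2.46 (SE 1.29), CD14 by 1.29 (SE 0.76) and CSF1 by 0.99 (SE 0.67). SIGLEC1, the macrophage adhesion receptor sialoadhesin, was lower by -0.36 (SE 0.18) within the range of background. The difference of CLEC4G, 5.17 (SE 2.91), was formed from values under any reliable level.

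Other members showed no such order. C1QB, a chain of the complement initiator C1q, was 8.37 ± 0.83 in giant cell and 9.09 ± 0.80 in osteoblastic tumors of DFI < 100, a difference of -0.73 (SE 0.91). CD163 differed by -0.31 (SE 1.07) and FCGR1A, the high affinity IgG receptor, by -0.42 (SE 0.83). SLC11A1, a metal transporter of the phagosome, differed by -0.91 (SE 0.89). Groups failed to overlap in 6 of 36 members (CD68, LAPTM5, TYROBP, CTSD and SPI1 higher, SIGLEC1 lower), against 5.29% of all probesets.

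**Figure D3:**
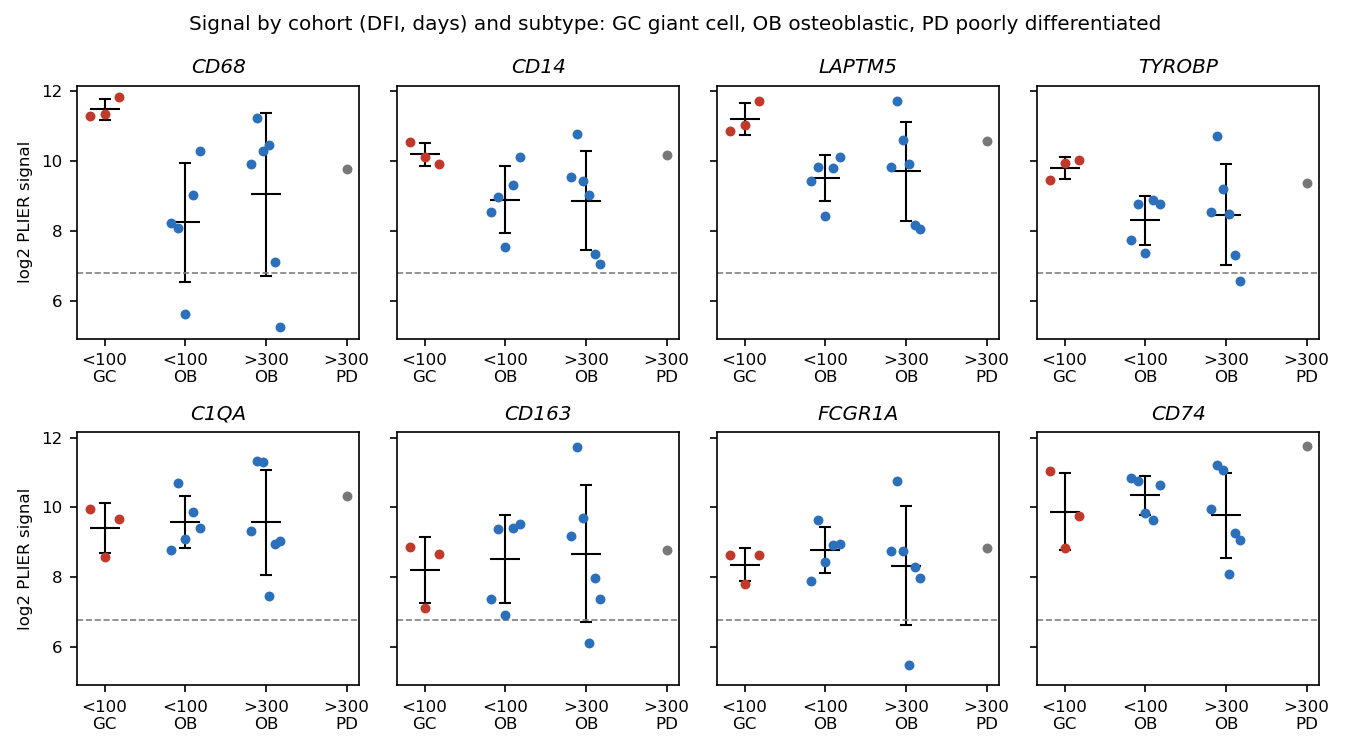
Log2 signal of 8 members in each tumor by cohort and subtype, with the mean and SD as bars and the reporter level as a dashed line. The giant cell tumors (red) lie above the osteoblastic tumors of their own cohort for CD68, LAPTM5 and TYROBP and overlap them at the upper end for CD14. They overlap them for C1QA, CD163, FCGR1A and CD74, reaching both below and above them for CD74.

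Markers of other cells moved with the same contrast. Of 12 measured osteoclast genes 10 were higher in giant cell tumors, with a median of 1.31, and 2 were higher at an unadjusted p of 0.05, where 19180 of 42860 probesets were higher and 2.79% passed as higher. CTSK, the collagen degrading cathepsin of osteoclasts, was 13.48 ± 0.07 against 12.21 ± 1.02, and CA2, the carbonic anhydrase that supplies acid for resorption, was 10.77 ± 1.21 against 8.51 ± 0.58, a difference of 2.26 (SE 0.71). The mean of the 7 osteoclast genes above the level, centred on each gene's mean, lay between 1.53 and 1.96 in giant cell tumors, between -2.90 and 0.72 in osteoblastic tumors of DFI < 100, between -4.00 and 1.36 in those of DFI > 300, and at 1.34 in the poorly differentiated tumor. All 9 endothelial genes were also higher in giant cell tumors, with a median of 1.12 and 4 at an unadjusted p of 0.05 beside that same 2.79%, KDR, the VEGF receptor, having the largest mean and the smallest p (difference 1.12, SE 0.41). No list gene had a signal of 0. The part of these cells in the members' differences was not tested.

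The members were related to the osteoclast genes to very different degrees. This relation was examined after the values were known, as Pearson's r of each member with the mean of the 7 osteoclast genes over 15 tumors, among 252 relations of 36 members with 7 marker lists. For CD68 it was 0.966 (Spearman's rho 0.950, permutation p = 1e-05 for both, adjusted p = 0.00063 and 0.00084), 0.925 without the 2 tumors farthest from the median, 0.977 within DFI < 100 and 0.971 within DFI > 300. CD84, CD14, SPI1 and LAPTM5 followed with 0.947, 0.918, 0.918 and 0.903. The values of CSF1R (0.881), TYROBP (0.859), CTSB (0.774), LYZ (0.668) and CTSD (0.664) also had an adjusted permutation p below 0.05, though rho did not for CTSB and LYZ (adjusted p = 0.189 and 0.103). A permutation p of 1e-05 is the smallest that 100000 permutations can give.

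For the C1q chains and several receptors the same relation was weak. The r with the osteoclast genes was 0.148 for C1QA, 0.166 for C1QC, 0.045 for C1QB, 0.043 for FCGR1A, 0.054 for SLC11A1, 0.108 for VSIG4 and 0.315 for CD163, with raw permutation p values from 0.254 to 0.874. Without the 2 farthest tumors C1QA and CD163 gave -0.013 and 0.027. Dog 190030 showed the separation most plainly, with an osteoclast mean of 1.13 and the fifth highest CD68 of the series, 10.45, beside the lowest C1QA (7.47), C1QB (6.11), CD163 (6.12) and FCGR1A (5.48) of all 15 tumors. In dog 184844, by contrast, C1QA was 10.71 and C1QB 10.46, among the highest of the series, while CD68 was 8.07 and the osteoclast mean -1.23. Whether the relation of CD68 differs from that of C1QA was not tested.

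**Figure D4:**
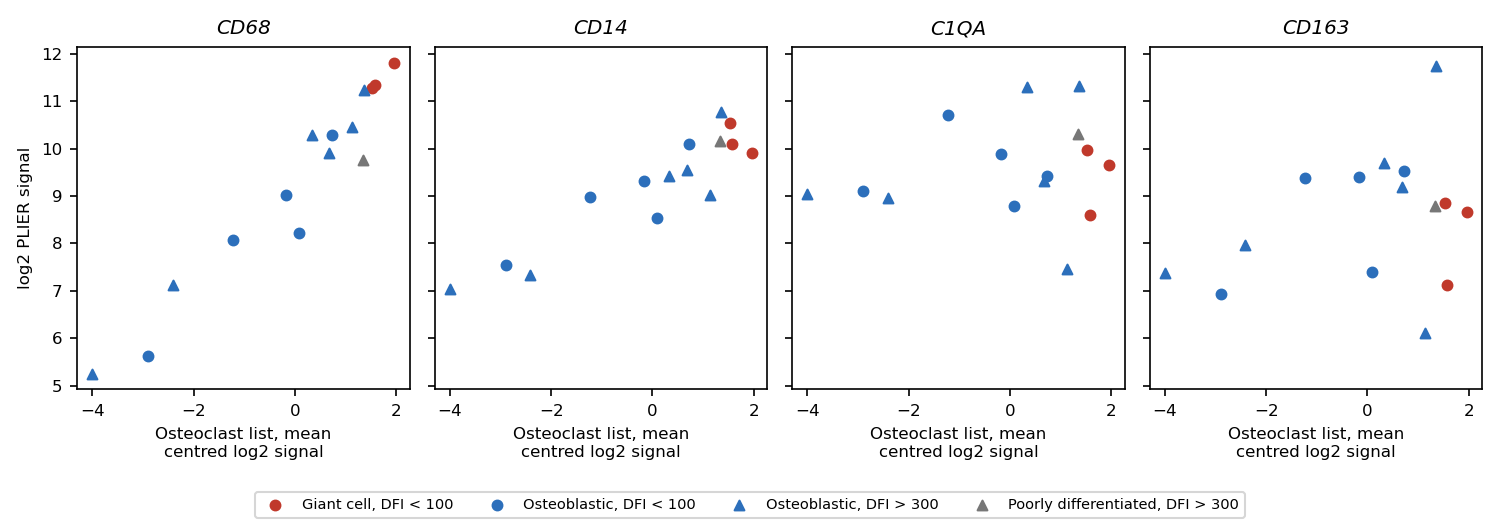
Log2 signal of CD68, CD14, C1QA and CD163 in each of 15 tumors against the mean centred log2 signal of 7 osteoclast genes, by subtype (color) and cohort (symbol). CD68 and CD14 rise along the osteoclast list (r 0.966 and 0.918), while C1QA and CD163 scatter (r 0.148 and 0.315).

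Among themselves the members rose and fell together across tumors. Over the 300 pairs of the 25 members above the level the median r was 0.58, and 61.7% of pairs were above 0.5, against a median of 0.01 and 5.28% for pairs of all genes above the level. These are descriptions over pairs that share the same 15 arrays. The median was 0.38 within DFI < 100 and 0.69 within DFI > 300, and it was 0.46 without dog 180119. The 24 pairs under 0 were those of CIITA with each of the other members.

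**Figure D5:**
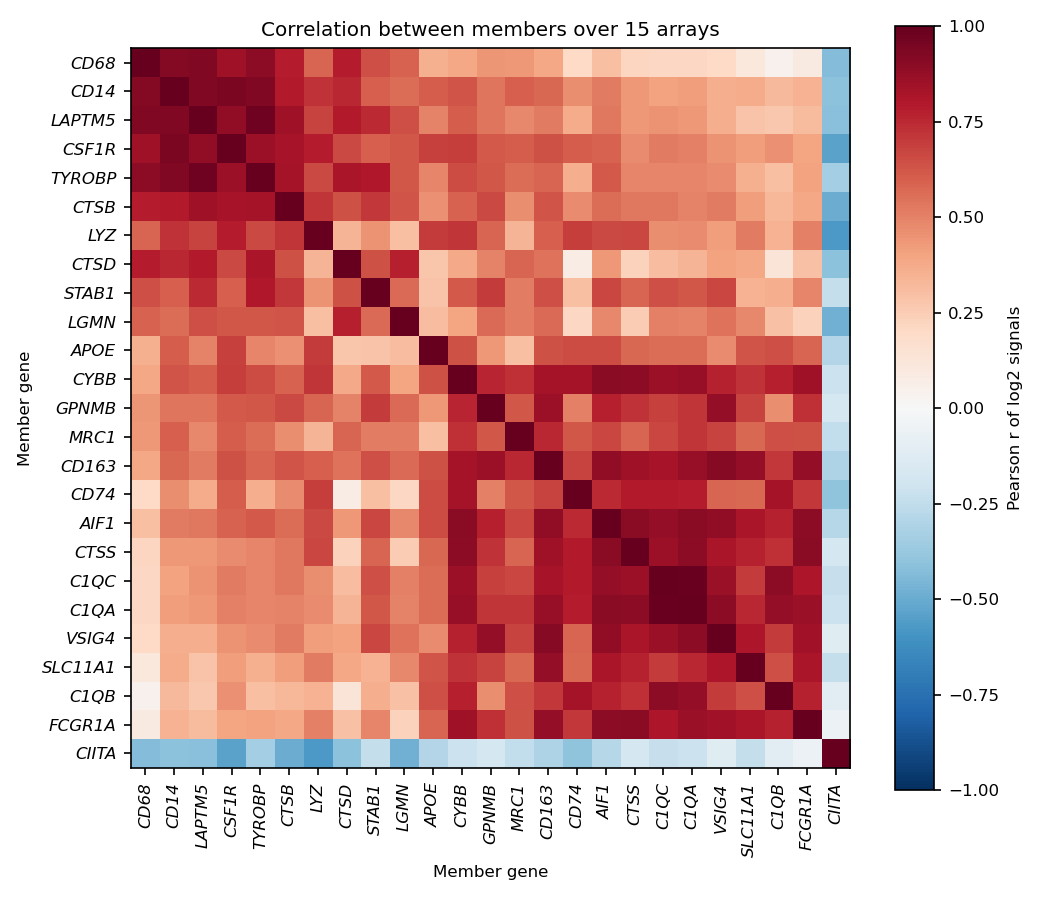
Pearson's r between the log2 signals of each pair of the 25 members above the reporter level, over 15 arrays. The upper left block (CD68, CD14, LAPTM5, CSF1R, TYROBP, CTSB) and the lower right block (CYBB to FCGR1A) hold the highest values, and CIITA is below 0 with every other member.

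The highest pair was C1QA with C1QC, genes whose chains form C1q together with C1QB, with r = 0.985 (rho 0.946, permutation p = 1e-05 for both, adjusted over 630 pairs 0.000225 and 0.00105). It was 0.952 within DFI < 100 and 0.995 within DFI > 300. C1QA with C1QB gave 0.876 and C1QB with C1QC 0.897, and in the annotated gene order of the UU_Cfam_GSD_1.0 assembly C1QC lies next to each of the others. C1QA itself was 9.52 ± 0.69 (SD, n = 8) in DFI < 100 and 9.68 ± 1.40 (n = 7) in DFI > 300, C1QB 8.82 ± 0.84 and 8.91 ± 1.70, and C1QC 9.16 ± 0.60 and 9.36 ± 1.42. The larger spread of DFI > 300 came from dogs 180119 and 180223 at the upper end (C1QA 11.32 and 11.31) and dog 190030 at the lower end.

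Genes of the CSF1 axis were also related. The receptor CSF1R and SPI1, which drives its transcription in myeloid cells, had r = 0.937 (rho 0.825, permutation p = 1e-05 and 0.00029, adjusted p = 0.000225 and 0.00389). CSF1R with its ligand CSF1 gave 0.739 (rho 0.711, permutation p = 0.00213 and 0.00399, adjusted p = 0.0107 and 0.0222), although CSF1 was above the reporter level in only 1 tumor, dog 153599 with 7.35. CSF1R lay at 7.79, 8.08 and 9.06 in giant cell tumors, between 5.70 and 8.07 in osteoblastic tumors of DFI < 100, between 5.36 and 9.73 in those of DFI > 300, and at 8.64 in the poorly differentiated tumor. All groups of more than 1 tumor overlapped. SPI1 with its target CYBB gave 0.558 (adjusted permutation p = 0.0688).

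Among the receptors and adaptors, LAPTM5 with TYROBP gave 0.975, staying at 0.970 or above when each dog was left out in turn. This pair was not preset and is given because each was the closest partner of the other. TYROBP was less related to the other adaptor and to its partner receptor, with 0.449 for FCER1G and 0.563 for TREM2 (adjusted permutation p = 0.154 and 0.0662), both partners lying at background in most tumors. FCER1G without the 2 tumors farthest from the median of TYROBP gave -0.066. TREM2, a lipid sensing receptor, was 6.22 ± 1.02 (SD, n = 8) in DFI < 100 and 6.20 ± 1.67 (n = 7) in DFI > 300, with dog 180119 the highest at 9.36 and 4 of 15 tumors above the level.

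Scavenger receptors were related to each other to different degrees. CD163 with MSR1, the class A scavenger receptor, gave 0.929 (rho 0.879, permutation p = 1e-05 and 6e-05, adjusted p = 0.000225 and 0.0018), and 0.842 without the 2 farthest tumors. With MARCO, another class A receptor, CD163 gave 0.689 (adjusted permutation p = 0.0208 for r and 0.0847 for rho) and 0.321 without the 2 farthest, so that this relation rested on them. SIGLEC1 and CLEC4G, both at background, reached no r above 0.447 and 0.221 with any member above the level, and the closest such partner of STAB1 was TYROBP (0.801). MARCO was above the level only in dog 180119 (10.78) and dog 208911 (7.76). CD163 itself was 8.41 ± 1.09 (SD, n = 8) in DFI < 100 and 8.70 ± 1.80 (n = 7) in DFI > 300. The proteases CTSB and CTSD gave 0.639 (rho 0.461, adjusted permutation p = 0.0351 and 0.169).

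For antigen presentation, CD74 was related to 7 of 8 class II chains. CD74 lay at 8.85, 9.76 and 11.03 in giant cell tumors, between 9.64 and 10.84 in osteoblastic tumors of DFI < 100, and between 8.10 and 11.20 in those of DFI > 300, and the poorly differentiated tumor had the highest value, 11.76. Its r was 0.929 with DLA-DRA, 0.950 with HLA-DRB1, 0.838 with DLA-DQA1 and 0.885 with DLA-DQB1, the chains of the peptide presenting molecules, and 0.818 with DLA-DMA and 0.873 with DLA-DMB, which load them. The chains of DO, which restrains DM, gave 0.842 for DLA-DOB and 0.471 for DLA-DOA, both under the level. Among 26 such relations 7 of these 8 had adjusted permutation p values from 0.00013 to 0.00123, and DLA-DOA had 0.132. HLA-DRB1 is the annotation's name for a canine probeset, and probesets of near-identical class II chains can share signal.

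For CIITA, which governs transcription of those chains, the array gave no settled relation, since its probesets disagreed and lay near or under background. The brightest CIITA probeset had a mean of 6.82, just above the level of 6.79, exceeded that level in 7 of 15 tumors, and gave r between -0.23 (DLA-DQA1) and -0.53 (DLA-DOB) with the 8 class II chains, and -0.40 with CD74. A dimmer CIITA probeset, with a mean of 4.35, gave 0.29 to 0.52 with the chains and 0.55 with CD74, and the probesets themselves had r = -0.13. Within DFI > 300 the dimmer probeset gave 0.56 to 0.85 with the chains and the brightest -0.13 to -0.45, and within DFI < 100 they gave -0.03 to 0.45 and -0.30 to -0.75. None of the 18 CIITA relations had an adjusted permutation p below 0.05. The lowest pair of the whole list was CIITA with LYZ, at r = -0.57 (rho -0.61, permutation p = 0.0269 and 0.0177, adjusted p = 0.065 and 0.0607).

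Further genes of the pathway gave no call between cohorts. Of 16 measured genes of class II chains and partners 7 were higher and 9 lower in DFI < 100 (median -0.03), and of 16 genes of class I presentation 7 were higher and 9 lower (median -0.14), with 0 at an unadjusted p of 0.05 in either list. DLA-DRA, the brightest of the class II list, differed by 0.09 (SE 0.48), and CTSH, a lysosomal aminopeptidase with the smallest p of that list, by -0.68 (SE 0.45). B2M, the light chain of class I molecules and the brightest of its list, differed by 0.04 (SE 0.20), and the class I heavy chain DLA-79 by -0.75 (SE 0.52). Of 29 further macrophage genes 17 were higher and 12 lower, again with 0 at that threshold, CYBA, the partner chain of CYBB, differing by 0.30 (SE 0.17) and the bacterial lipopeptide receptor TLR2 by -0.81 (SE 0.43).

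Few lymphocyte and granulocyte markers had a mean above the reporter level, which 42.7% of all named genes exceeded. Signals depend on the probes too, so a mean under the level does not show that such cells were few. Above the level were 1 of 16 measured genes of T and NK cells (NKG7), 1 of 8 of B and plasma cells (JCHAIN), 1 of 8 of neutrophils (S100A8), 1 of 5 of mast cells (MS4A2) and 3 of 9 of dendritic cells. NKG7, a granule protein of cytotoxic cells, stood 4.44 log2 units above its mean in the poorly differentiated tumor of dog 188084, the tumor with the highest CD74. S100A8, also made by monocytes, was highest in dog 180119, 2.55 above its mean. The part of these cells in the members' values was not tested.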

How the data were processed

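Values were the deposited intensities of 43035 probesets on 15 Canine 2.0 arrays, 1 per dog. Per the labels the authors made them with Affymetrix Expression Console and PLIER (versions not given in the sources used here), and the deposited intensity values were on a linear scale. They were taken as deposited, and log2 was computed here with no offset. After 175 control probesets were left out, 42860 were tested. GEO's platform annotation gave 29254 probesets 1 gene symbol, 439 several and 13167 none. Cohorts came from the labels. Subtype came from the study's population list.

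Tests used limma 3.58.1 in R 4.3.3 (lmFit, eBayes) with Benjamini-Hochberg adjustment over all 42860 probesets. The cohort fit had 2 groups, and the subtype fit 4 groups of cohort and subtype sharing 1 spread. Both fits were also run on the arrays' residuals with known differences added, and the median difference found lay near the added one. The residuals were centred within each group, so this checks the contrast and not how often a difference is detected. Correlations used 2-sided permutation tests (100000 permutations) in Python 3.11.15. Differences are given for the 12 members of smallest p between cohorts and the 10 between subtypes. Correlations are given for preset pairs and for others that were not preset, such as LAPTM5 with TYROBP, picked for its height. The members and lists were chosen with earlier results of these data known. Alternatives were an unpaired t-test as in the methods, trend and robust fits, an offset of 16, quantile normalization, a filter at the median, array weights, covariates (age, 3′ to 5′ ratio), leaving out Greyhounds, giant cell tumors or each dog, and the mean of a gene's probesets. The number of arrays limits precision. Promoter sequences were not analysed here.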

Additional observations from a re-analysis of the deposited data

Results flagged for a closer look

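In 3 of 72 sets of values (36 members in each of the cohorts), the highest dog stood apart from its cohort by a gap that was large against the cohort's range, by Dixon's test at the 95% level, where chance gives about 1 in 20 or 3.6 of 72. MARCO in dog 180119 read 10.78 on the log2 scale against 5.39 in the next dog of DFI > 300. CSF1 in dog 153599 read 7.35 against 5.52 in the next dog of DFI < 100. FCER1G in dog 173175 read 8.01 against 4.94 in the next dog of DFI < 100. All 3 genes had means under the reporter level.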

How the results depend on the processing

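No member passed an adjusted p of 0.05 under any alternative run in any of the 3 comparisons. Over all probesets, calls at that threshold numbered 2 (from 0) between cohorts without Greyhounds. Between subtypes within DFI < 100 they numbered 5 with the methods' t-test, 4 with only the 8 DFI < 100 arrays, and 0 with trend and robust fit, offset of 16, quantile normalization or the filter at the median (from 1), and 1 to 12 leaving out each dog. They were 0 to 1 within osteoblastic tumors leaving out each dog. Members with an unadjusted limma p below 0.05 between subtypes (2) were 7 with only the 8 arrays, 3 with array weights or the filter at the median, 1 with probesets averaged, 2 with the 3′ to 5′ ratio (1 higher, 1 lower) and 0 to 4 leaving out each dog (0 without dog 208911, 4 without dog 180119, 208513 or 223986), and the methods' t-test gave 5. Over all probesets the counts at this unadjusted p between subtypes were 2635 of 42860 in the main fit and 2958 with only the 8 arrays. They were 3007 with array weights, 2512 with the 3′ to 5′ ratio, 2859 with the t-test and 1766 to 3169 leaving out each dog. The filter gave 1483 of 21430 probesets, and averaging 943 of 15115 genes. Within osteoblastic tumors such members (0) were 1 with array weights (2616 of 42860 probesets) and 0 to 2 leaving out each dog (2 without dog 193231, beside 2810 probesets). The median r between members (0.58) was 0.64 without giant cell tumors, an alternative chosen after seeing the data, and 0.46 to 0.62 leaving out each dog. For the 12 members of smallest p between cohorts and the 10 between subtypes, of 216 differences under alternatives that left out no single dog, 210 kept direction and side of the threshold and 6 changed sign, none passing it. These were APOE (-0.22) and HMOX1 (-0.38) with age, CD14 (-0.21), CTSB (-0.086) and LAPTM5 (-0.085) without Greyhounds, and LAPTM5 (-0.19) in osteoblastic tumors only. CTSB ranged from -0.025 (without dog 208513) to 0.31 leaving out each dog. Among members outside the 12, TREM2, C1QA, C1QB and TYROBP turned between cohorts as given with them above. More members turned than are named here, and turns outside the 12 were not counted singly. The split of 21 members higher and 15 lower in DFI < 100 became 33 and 3 without dog 180119. It became 13 and 23 without Greyhounds, and 16 and 20 with array weights. The cause was not tested. Of 35 further probesets of the members, 27 had r above 0.9 with the probeset used. No paired analysis was possible because dog numbers were not shared between cohorts. Members near background have the least certain differences.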

Other observations

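Over the 25 members above the reporter level, the median r with the mean of each further list was 0.72 for further macrophage genes, 0.67 for class II chains and partners, 0.46 for class I presentation, 0.38 for osteoclasts and 0.24 for endothelium. For dendritic cell genes, here only the 3 of 9 above the level (FLT3, CD83 and FSCN1), the median was -0.22. Single members lay between -0.49 and -0.09 with them. For osteoblast and bone matrix genes the median was -0.27, with single members between -0.49 and 0.29. These are descriptions over the same 15 tumors, with no test of a list. No single member had an adjusted permutation p below 0.05 with the osteoblast or dendritic cell genes.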
